A study of Mus musculus with 6 samples.

Results

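The genes examined were 4 transcription factors that drive the formation of fat cells, Cebpb, Cebpd, Pparg and Cebpa, and 6 genes that fat cells use, Lpl, Cd36, Pnpla2, Lipe, Adipoq and Car3. These 10 genes, of 20723 gene symbols in all, were found by symbol and were read by 11 of the 23346 probe sets, with 2 probe sets for Lipe and 1 for each other gene. The genes were picked in part because Car3 and Lpl were higher on the Ezh2 -/- array of Ink4a/Arf+/+ cells, so the differences in that background are given as a description, with no test. Transcript levels came from Affymetrix whole-transcript arrays of fibroblast lines (connective tissue cells) made from Ola129 strain mouse embryos. The cells were kept in serum with leukemia inhibitory factor and collected while dividing exponentially, and the labels' protocols name no fat-inducing hormone mix. Cells labelled Ink4a/Arf-/-, for the locus of the cell cycle inhibitors Ink4a and Arf, gave 2 arrays with Ezh2 -/- and 2 with Ezh2 fx/fx. Cells labelled Ink4a/Arf+/+ gave 1 array with Ezh2 -/- and 1 with Ezh2 fx/fx. The labels do not name a Cre, a deletion method or an age, and the series' design text speaks of short RNAs against Ezh2 where the titles name genotypes. The titles were used, and "fx/fx" stands as labelled.

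Fat cells form in a cascade in which C/EBP-beta and C/EBP-delta, made early, turn on PPAR-gamma and C/EBP-alpha, and these sustain each other and switch on the genes of lipid uptake, storage and release. Embryonic fibroblasts can enter this cascade when given a hormone mix and hold its regulators at some level before it. Ezh2 is the Polycomb enzyme that methylates histone H3 at promoters rich in CpG, the dinucleotide of C followed by G.

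Levels are log2 values as deposited, and the tables of both backgrounds have different medians, between 8.25 and 8.32 in Ink4a/Arf-/- and at 7.50 and 7.51 in Ink4a/Arf+/+, so differences were taken only within a table. Ezh2 itself read lower on the Ezh2 -/- arrays by a log2 difference of -0.35 ± 0.08 (SE, n = 2 per genotype) in Ink4a/Arf-/- cells (limma, Benjamini-Hochberg adjusted p = 0.577) and of -0.36 in Ink4a/Arf+/+ cells, and it stayed between percentiles 81.3 and 86.6 on every array. Cdkn2a, the gene of the Ink4a/Arf locus, lay between percentiles 47.9 and 63.6 on all 6 arrays, Ink4a/Arf-/- included, and differed by -0.078 and 0.71 between the Ezh2 genotypes. Where the probes of either gene lie relative to the deleted part was not known here, so these levels check no label. One array stood apart: fx/fx replicate 1 had a loading of 0.84 on the first principal component of the 4 Ink4a/Arf-/- arrays, which held 46.2% of their variance, against -0.42 to -0.098 for the others. Precision is limited by how few arrays there are, and the labels do not call the replicates separate cultures, so p-values measure only the spread between these samples.

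The start sites of these genes differ in CpG content, as shown here for both regulators whose groups did not overlap and for Adipoq. Windows from 250 bases before to 50 after a start, from RefSeq on GRCm38.p6, were matched for 7 of the 10 genes, which gave 10 windows. Cebpd, Lpl and Car3 were not matched. Capitals mark CpG in each sequence, which runs 5′ to 3′ on the gene's strand.
Pparg, the start farthest upstream, chr6:115360894-115361193, plus strand: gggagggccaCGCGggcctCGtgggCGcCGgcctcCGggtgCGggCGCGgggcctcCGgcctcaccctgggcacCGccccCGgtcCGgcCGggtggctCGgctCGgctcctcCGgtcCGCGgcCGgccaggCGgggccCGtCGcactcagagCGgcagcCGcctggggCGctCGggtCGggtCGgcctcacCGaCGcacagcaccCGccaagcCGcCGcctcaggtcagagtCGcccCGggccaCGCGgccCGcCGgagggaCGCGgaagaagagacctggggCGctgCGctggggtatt
Pparg, the start farthest downstream, chr6:115421816-115422115, plus strand: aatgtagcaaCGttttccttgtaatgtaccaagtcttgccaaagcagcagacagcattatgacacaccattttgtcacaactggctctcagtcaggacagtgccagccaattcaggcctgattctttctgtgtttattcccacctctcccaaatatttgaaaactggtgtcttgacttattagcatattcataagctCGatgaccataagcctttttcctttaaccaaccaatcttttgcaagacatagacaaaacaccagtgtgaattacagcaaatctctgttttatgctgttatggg
Cebpa, chr7:35119043-35119342, plus strand: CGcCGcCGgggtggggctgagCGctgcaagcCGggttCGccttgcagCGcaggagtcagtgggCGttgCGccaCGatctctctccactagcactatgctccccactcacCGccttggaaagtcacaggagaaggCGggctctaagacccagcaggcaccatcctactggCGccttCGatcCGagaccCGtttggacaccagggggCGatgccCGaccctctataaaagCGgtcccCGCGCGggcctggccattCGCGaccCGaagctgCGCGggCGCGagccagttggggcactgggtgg
Adipoq, chr16:23146286-23146585, plus strand: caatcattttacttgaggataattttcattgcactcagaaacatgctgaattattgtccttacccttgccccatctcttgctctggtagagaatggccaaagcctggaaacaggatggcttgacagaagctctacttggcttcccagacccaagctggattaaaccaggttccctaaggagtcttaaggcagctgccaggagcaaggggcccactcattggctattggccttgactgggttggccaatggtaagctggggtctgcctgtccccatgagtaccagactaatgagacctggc
The upstream Pparg window held 44 CpG (percentile 97.9 of 32851 windows) and the downstream one 2 (percentile 18.7), while Cebpa held 29 and Adipoq 0. Among the other windows, Cebpb held 50 CpG, Pnpla2 18, the upstream start of Lipe 19, its downstream start 2 and Cd36 3, beside a median of 7 over all windows. Regulators and lipid genes thus did not fall into separate classes by this count, since Pparg and Lipe each had starts above and below the median. The C/EBP motif TTNNGNAA, searched on both strands, was found in 3 of the 10 windows (40.7% of all windows hold it), with 2 matches at the downstream Pparg start and 1 each in Cd36 and Adipoq. The nuclear receptor core site AGGTCA, on both strands, was in 3 of the 10 windows (16.3% of all windows), at the upstream and the middle Pparg start and in Cd36, and no match overlapped one of the other motif. The single Pparg probe set gives no separate values for these starts.

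In Ink4a/Arf-/- cells no regulator or fat cell gene passed the test between the Ezh2 genotypes. Of the 11 probe sets 0 passed the limma test over all probe sets (0% of 23346 passed), with adjusted p between 0.751 for Cebpa and 0.997 for Cd36. At an unadjusted p below 0.05 the count was also 0 of 11, beside 6.93% of all probe sets, and the authors' deposited table, with its p-values adjusted here, gave 0 as well. In 3 probe sets both Ezh2 -/- arrays were higher than both fx/fx arrays (13.0% of all probe sets), for Pparg, Lpl and Car3. In 2 they were lower (23.6% of all), for Cebpa and 1 probe set of Lipe. In all, 7 of the 11 probe sets were higher in Ink4a/Arf-/- cells (39.1% of all probe sets) and 5 in Ink4a/Arf+/+ cells (50.1%). The median log2 difference of the 11 probe sets was 0.032, beside -0.027 over all probe sets, and no 95% interval reached beyond 0.42 in size. On the Ink4a/Arf+/+ arrays, Car3 and Lpl, the genes picked for it, were at least 2-fold higher with Ezh2 -/-, beside 0.797% of all probe sets, and the other 8 genes differed by less than 1.5-fold (4.47% of all probe sets reached that in either direction).

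**Figure D1:**
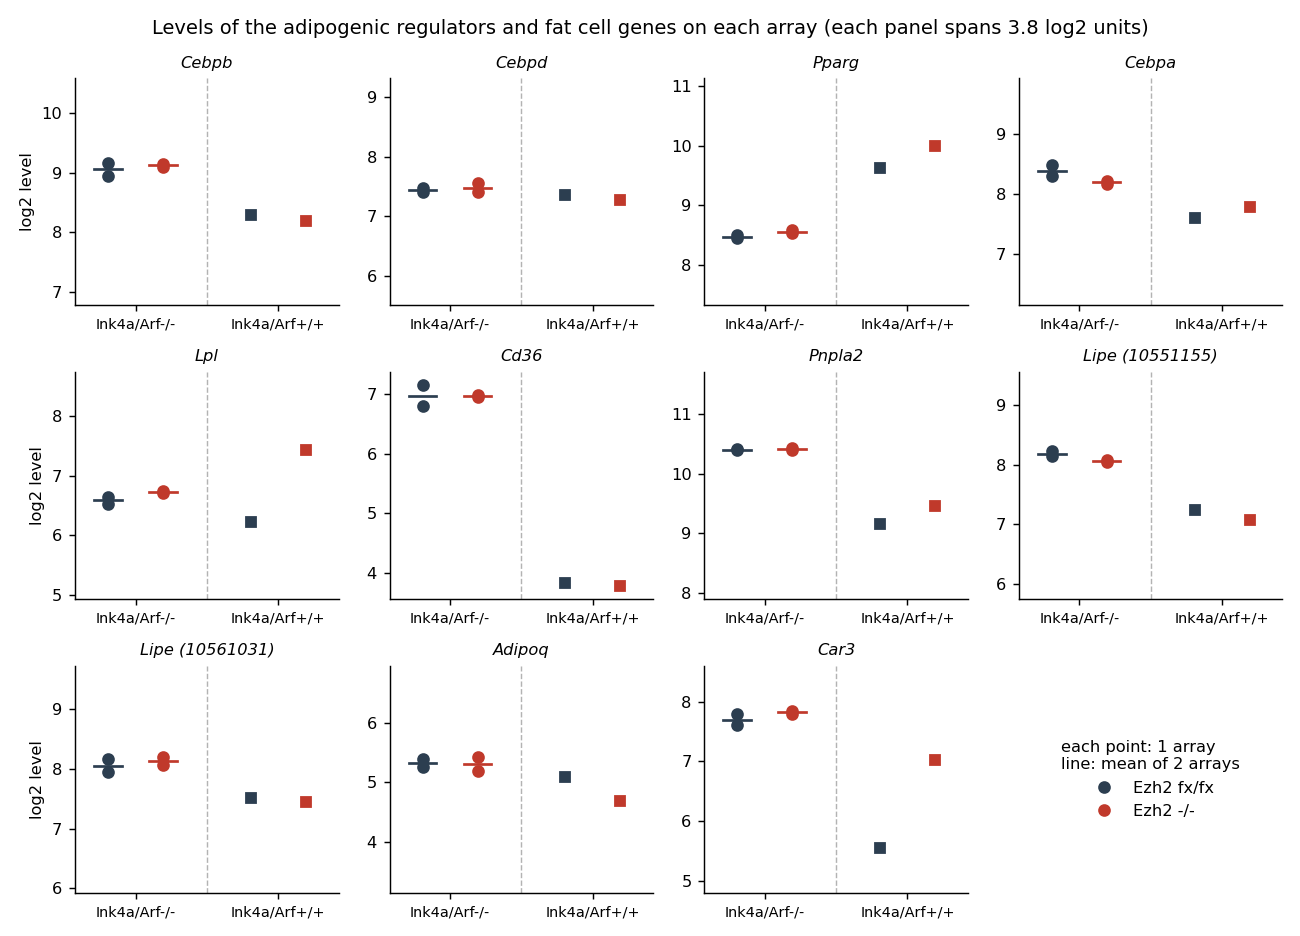
Log2 level (vertical axis) of each probe set on each of the 6 arrays, with circles for Ink4a/Arf-/- and squares for Ink4a/Arf+/+ arrays, dark for Ezh2 fx/fx and red for Ezh2 -/-, and a line at the mean of 2 arrays. The tables on the left and right of each dashed line were treated as normalized separately, and the gap between dark and red is wide only for Lpl and Car3 in Ink4a/Arf+/+ cells, where Lpl read 7.43 against 6.23 and Car3 7.03 against 5.54.

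The early regulators were nearly level between genotypes. Cebpb, which encodes C/EBP-beta, read 9.15 and 9.09 with Ezh2 -/- against 9.16 and 8.94 with fx/fx in Ink4a/Arf-/- cells. The groups overlapped, because fx/fx replicate 1 was the highest of the 4 arrays and fx/fx replicate 2 the lowest. The log2 difference was 0.067 ± 0.096 (SE, limma, adjusted p = 0.941), with a 95% interval from -0.17 to 0.30. The Ink4a/Arf+/+ arrays gave Cebpb levels of 8.20 with Ezh2 -/- and 8.29 with fx/fx, a difference of -0.091. Cebpd, which encodes C/EBP-delta, read 7.40 and 7.55 with Ezh2 -/- against 7.48 and 7.41 with fx/fx, so that the Ezh2 -/- replicates enclosed both fx/fx values. Its difference of 0.032 ± 0.086 (limma, adjusted p = 0.976, 95% interval -0.18 to 0.25) was smaller than the gap of 0.15 between the Ezh2 -/- replicates. In the Ink4a/Arf+/+ pair of arrays Cebpd read 7.27 and 7.36, a difference of -0.085 in the same small range as Cebpb.

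For both later regulators, which carry the fat cell program, the genotypes did not overlap on the Ink4a/Arf-/- arrays, in opposite directions and by little. Of all probe sets, 13.0% were higher and 23.6% lower without overlap, and neither regulator passed the test. Pparg, the gene of the lipid-sensing nuclear receptor PPAR-gamma, read 8.58 and 8.53 with Ezh2 -/- against 8.49 and 8.45 with fx/fx. Both Ezh2 -/- values were above both fx/fx values, and the closest pair was 0.036 apart. The log2 difference of 0.082 ± 0.073 (SE) did not pass (limma, adjusted p = 0.876), and its 95% interval ran from -0.099 to 0.26, at most 1.20-fold higher. Between the Ink4a/Arf+/+ arrays, Pparg read 9.997 with Ezh2 -/- and 9.63 with fx/fx, a difference of 0.37 or 1.29-fold. Cebpa, which encodes C/EBP-alpha, read 8.22 and 8.17 with Ezh2 -/- against 8.48 and 8.30 with fx/fx. Both Ezh2 -/- arrays were lower, and the fx/fx replicates lay 0.19 apart, about as far as the genotypes did. The difference of -0.19 ± 0.09 was the one with the lowest unadjusted p of the set, 0.0777 (limma, adjusted p = 0.751, 95% interval -0.42 to 0.03), and it was -0.10 without fx/fx replicate 1. On the Ink4a/Arf+/+ arrays Cebpa stood the other way, at 7.79 with Ezh2 -/- and 7.59 with fx/fx, a difference of 0.19 between single arrays.

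The genes of lipid uptake were Lpl and Cd36, and neither passed the test in Ink4a/Arf-/- cells. Lpl encodes lipoprotein lipase, which frees fatty acids from circulating triglyceride and is made by fat cells, muscle and macrophages. It read 6.71 and 6.74 with Ezh2 -/- against 6.65 and 6.53 with fx/fx in Ink4a/Arf-/- cells, without overlap. The log2 difference of 0.13 ± 0.08 (SE, limma, adjusted p = 0.786) had a 95% interval from -0.06 to 0.33, at most 1.26-fold higher, and was 0.076 without fx/fx replicate 2 and 0.19 without fx/fx replicate 1. On the Ink4a/Arf+/+ arrays Lpl read 7.43 with Ezh2 -/- and 6.23 with fx/fx, a difference of 1.20 or 2.30-fold, which is one of the values it was picked for. Cd36 encodes a receptor that takes up long-chain fatty acids and oxidized lipoproteins in fat cells, macrophages and endothelium. It read 6.98 and 6.95 with Ezh2 -/- against 7.15 and 6.79 with fx/fx, which enclosed the Ezh2 -/- values. The difference of -0.0048 ± 0.13 (SE, limma, adjusted p = 0.997) followed whichever fx/fx array was kept, at 0.17 without replicate 1 and -0.18 without replicate 2. In the Ink4a/Arf+/+ pair of arrays, Cd36 read 3.78 and 3.84, a difference of -0.061. Cd36 is also among the dimmest 30%, between percentiles 26.5 and 30.2 on the Ink4a/Arf-/- arrays and at 4.39 and 4.82 on the Ink4a/Arf+/+ arrays. Without detection calls it is not known to be above background.

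The genes of lipolysis, Pnpla2 and Lipe, did not pass the test in Ink4a/Arf-/- cells either. Pnpla2 encodes the lipase ATGL, which removes the first fatty acid from stored triglyceride. It read 10.40 and 10.43 with Ezh2 -/- against 10.42 and 10.39 with fx/fx, and the groups overlapped. The difference was 0.015 ± 0.072 (SE, limma, adjusted p = 0.99), with a 95% interval from -0.16 to 0.19. The Ink4a/Arf+/+ pair of arrays put Pnpla2 at 9.45 with Ezh2 -/- and 9.16 with fx/fx, 1.22-fold higher on the single Ezh2 -/- array. Lipe encodes hormone-sensitive lipase, which acts on diglyceride after ATGL, and its probe sets disagreed in sign. Probe set 10551155 read 8.04 and 8.08 with Ezh2 -/- against 8.22 and 8.14 with fx/fx, lower in both by a log2 difference of -0.13 ± 0.08 (SE, limma, adjusted p = 0.799). Probe set 10561031 read 8.19 and 8.07 against 8.17 and 7.95, with overlap and a difference of 0.077 ± 0.10 (limma, adjusted p = 0.934). The mean over both probe sets differed by -0.024, so no direction can be given for Lipe in Ink4a/Arf-/- cells. Both were slightly lower on the Ezh2 -/- array of Ink4a/Arf+/+ cells, at 7.07 against 7.24 and at 7.45 against 7.51.

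The adipokine and the carbonic anhydrase made up the ends of the range in Ink4a/Arf+/+ cells. Adipoq encodes adiponectin, a hormone secreted almost only by fat cells. It read 5.20 and 5.42 with Ezh2 -/- against 5.25 and 5.39 with fx/fx in Ink4a/Arf-/- cells, with the groups interleaved, and differed by -0.013 ± 0.10 (SE, limma, adjusted p = 0.993). In the Ink4a/Arf+/+ pair of arrays it read 4.68 with Ezh2 -/- and 5.08 with fx/fx, a log2 difference of -0.40. The probe set is among the dimmest 30%, between percentiles 7.28 and 9.50 on the Ink4a/Arf-/- arrays and at 12.7 and 17.3 on the Ink4a/Arf+/+ arrays. Without detection calls it is not known to be above background in either background. Car3 encodes carbonic anhydrase III, a cytosolic enzyme abundant in fat and in slow skeletal muscle. It read 7.85 and 7.80 with Ezh2 -/- against 7.80 and 7.60 with fx/fx in Ink4a/Arf-/- cells. The groups did not overlap, but Ezh2 -/- replicate 2 and fx/fx replicate 1 were only 0.0011 apart. The log2 difference of 0.13 ± 0.09 (SE, limma, adjusted p = 0.846, 95% interval -0.10 to 0.35) was 0.22 without fx/fx replicate 1 and 0.030 without fx/fx replicate 2. In Ink4a/Arf+/+ cells Car3 read 7.03 with Ezh2 -/- and 5.54 with fx/fx, a difference of 1.49 or 2.80-fold, again a value it was picked for. Car3 and Lpl were picked for this difference, so their place among all probe sets is not read. The differences of the 9 other probe sets there lay between percentiles 5.03 and 93.5 of all probe sets.

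**Figure D2:**
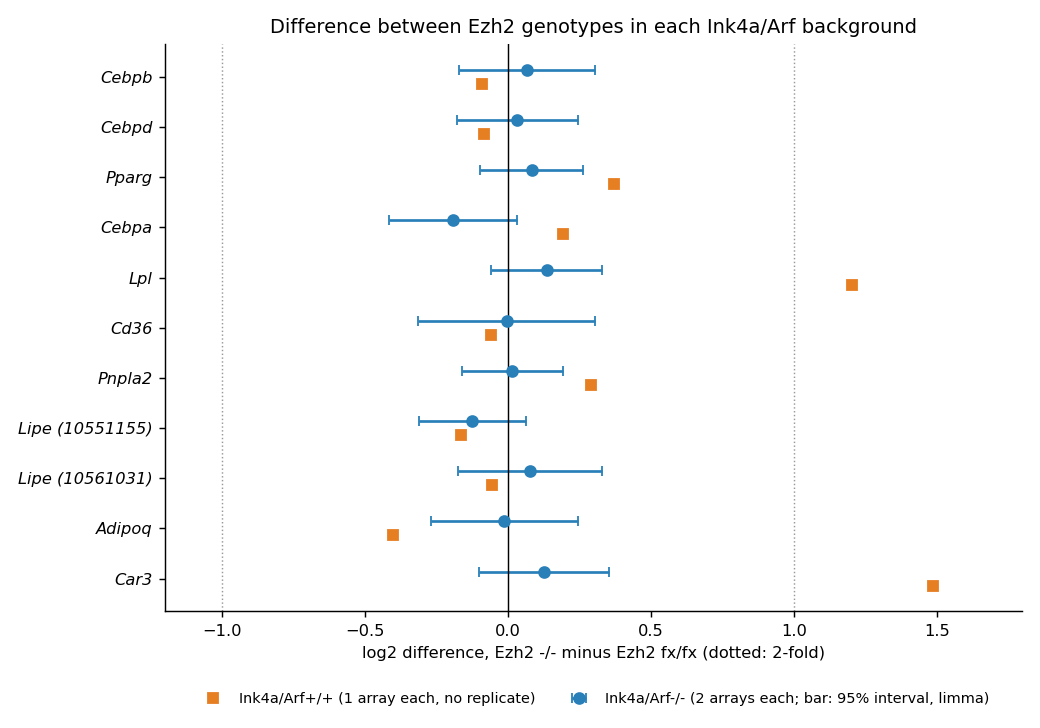
Log2 difference of Ezh2 -/- minus Ezh2 fx/fx (horizontal axis) for each probe set, with circles and 95% limma intervals for Ink4a/Arf-/- cells and squares for the single-array differences of Ink4a/Arf+/+ cells, and dotted lines at 2-fold. Every interval crosses 0 in Ink4a/Arf-/- cells, and only Lpl at 1.20 and Car3 at 1.49 pass 2-fold in Ink4a/Arf+/+ cells.

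By role, the 4 regulators had a median log2 difference of 0.049 in Ink4a/Arf-/- cells and 0.054 in Ink4a/Arf+/+ cells. The 6 fat cell genes, with the Lipe probe set of the higher mean level, had medians of 0.046 and 0.12. The fat cell genes spanned -0.40 to 1.49 in Ink4a/Arf+/+ cells and the regulators -0.091 to 0.37, and the upper end of the wider range is Car3 and Lpl, which were picked for these values, so nothing is read from this contrast. Of the 11 probe sets 7 had the same sign in both backgrounds. These include Lpl and Car3, whose sign in Ink4a/Arf+/+ cells was set by how they were picked, so nothing is read from the count. Leaving out 1 array turned the sign in Ink4a/Arf-/- cells for Cebpb (-0.040 without fx/fx replicate 2), Cebpd (-0.043 without Ezh2 -/- replicate 2), Pnpla2 (-0.00038 without Ezh2 -/- replicate 2), Lipe probe set 10561031 (-0.032 without fx/fx replicate 2) and Adipoq (0.097 without Ezh2 -/- replicate 1), as for Cd36. The difference between backgrounds was not tested, because the genes were picked in part by one side of it and that side has no replicates.

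The rank of a probe set within its array, in percent of all probe sets, was used to set a gene against itself across tables. Pparg lay between percentiles 52.4 and 54.0 on the 4 Ink4a/Arf-/- arrays and at 76.7 (fx/fx) and 81.4 (Ezh2 -/-) on the Ink4a/Arf+/+ arrays. Cd36 went the opposite way, from between 26.5 and 30.2 in Ink4a/Arf-/- to 4.82 and 4.39 in Ink4a/Arf+/+ cells. At those low ranks, and without detection calls, Cd36 is not known to be above background. For both genes the gap between backgrounds was far wider than the gap between Ezh2 genotypes. Car3 ranked between 41.1 and 44.3 on all Ink4a/Arf-/- arrays, at 23.2 on the Ink4a/Arf+/+ fx/fx array and at 44.1 on the Ink4a/Arf+/+ Ezh2 -/- array. Car3 was picked for the difference between the Ink4a/Arf+/+ arrays, as Lpl was, so nothing is read from the ranks of either gene there. Lpl ranked between 21.4 and 24.7 in Ink4a/Arf-/- cells, at 33.3 on the Ink4a/Arf+/+ fx/fx array and at 49.2 on the Ezh2 -/- array, above all others. Between the fx/fx arrays, the rank of Pparg differed by 24.2 and that of Cd36 by -23.5 (Ink4a/Arf+/+ minus Ink4a/Arf-/-), beside a median absolute shift of 3.15 and a 95th percentile of 13.7 over all probe sets. The tables were treated as normalized separately, and with 1 array per genotype in Ink4a/Arf+/+ cells these shifts have no test. Ink4a/Arf status cannot be told apart from other differences between the tables.

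**Figure D3:**
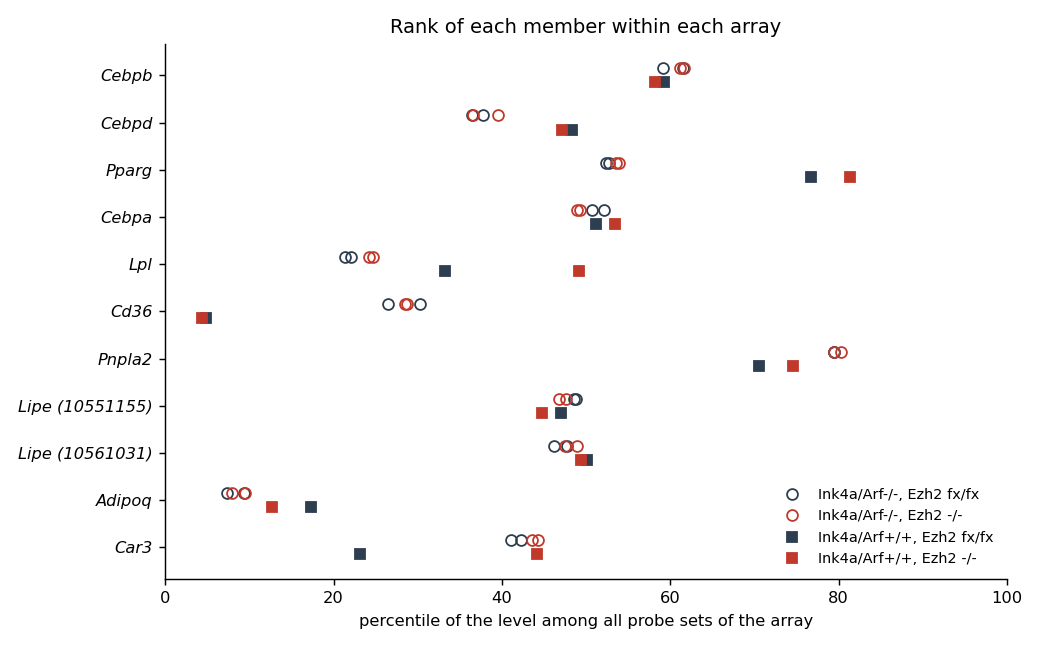
Percentile of each probe set's level among all probe sets of its array (horizontal axis), with open circles for Ink4a/Arf-/- and filled squares for Ink4a/Arf+/+ arrays, dark for Ezh2 fx/fx and red for Ezh2 -/-. Pparg lies between 52.4 and 54.0 in Ink4a/Arf-/- cells and at 76.7 and 81.4 in Ink4a/Arf+/+ cells. Cd36 lies at 4.82 and 4.39 in Ink4a/Arf+/+ cells, where it is not known to be above background. Car3, picked for its difference in Ink4a/Arf+/+ cells, lies at 23.2 on the fx/fx array there.

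The genes whose pattern over the 6 arrays came nearest to Car3 and to Lpl were found by Euclidean distance between log2 levels, after the mean of each table was subtracted. Nearest to Car3 were Comp, a cartilage matrix protein, at a distance of 0.075, the secreted Wnt antagonist Frzb at 0.10 and Angpt1, a ligand of the endothelial receptor Tie2, at 0.10. Their differences in Ink4a/Arf+/+ cells were 1.41, 1.52 and 1.43, and in Ink4a/Arf-/- cells 0.17, 0.14 and 0.036. Nearest to Lpl were Sfrp4, another secreted Wnt antagonist, at a distance of 0.076, the guidance ligand Slit3 at 0.080 and the transcription factor Zic1 at 0.083. These differed by 1.26, 1.12 and 1.14 in Ink4a/Arf+/+ cells and by 0.17, 0.18 and 0.13 in Ink4a/Arf-/- cells. Lpl itself ranked 24th in nearness to Car3, at 0.21, and Car3 ranked 64th in nearness to Lpl, beside median distances of 1.07 and 0.88 over all named genes. These distances describe 6 arrays and rest mostly on the single difference in Ink4a/Arf+/+ cells, for which Car3 and Lpl were picked. That the genes nearest to them differ by similar amounts there follows from the search itself.

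Around the 10 genes, 95 others of fat cell formation and lipid handling were measured, in 8 lists by role. In Ink4a/Arf-/- cells 0 of the 95 passed the limma test (0% of 20723 genes), and 8 had an unadjusted p below 0.05 (6.53% of all genes). Their median difference was 0.0075, beside -0.025 over all genes. In Ink4a/Arf+/+ cells 2 of the 95 were at least 2-fold higher (0.782% of all genes) and 0 at least 2-fold lower (0.246%), with a median of 0.063 beside 0.0062 over all genes. The 2 were Mgll and Ebf2, and neither has a replicate there.

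Among the 13 lipid droplet and lipolysis genes, Mgll had the largest difference in both backgrounds. Mgll encodes monoglyceride lipase, which takes the last fatty acid off after ATGL and hormone-sensitive lipase. It read 10.02 and 9.97 with Ezh2 -/- against 9.49 and 9.50 with fx/fx in Ink4a/Arf-/- cells, and 10.88 against 9.70 in Ink4a/Arf+/+ cells. The groups were clearly apart, with a log2 difference of 0.50 ± 0.07 (SE, n = 2 per genotype) that did not pass over all probe sets (limma, adjusted p = 0.507, unadjusted p = 0.000518), and of 1.18 in Ink4a/Arf+/+ cells. With a variance trend in limma Mgll passed, the 1 gene of the 95 to do so, beside 48 of all 23346 probe sets. Pde3b, the phosphodiesterase through which insulin restrains lipolysis, differed by 0.25 (limma, adjusted p = 0.695), or 0.16 without fx/fx replicate 2, and 0.46, and the droplet coat gene Plin4 by 0.038 and 0.54. In this list 11 of 13 genes were higher in Ink4a/Arf+/+ cells (50.1% of all probe sets), with a median of 0.26. In Ink4a/Arf-/- cells 7 of 13 were higher (39.1% of all probe sets), with a median of 0.038. The Ink4a/Arf+/+ count rests on 1 array per genotype and was not tested.

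The 17 regulators that favour fat cell formation had medians of 0.0075 and 0.12. Ebf2, a factor of fat cell precursors, differed by 0.16 (limma, adjusted p = 0.745) in Ink4a/Arf-/- cells, and in Ink4a/Arf+/+ cells it read 7.73 with Ezh2 -/- against 6.63 with fx/fx, a difference of 1.10. Its other probe set read 4.57 on both Ink4a/Arf+/+ arrays, so that the mean over its probe sets differed by 0.55 there and by 0.065 in Ink4a/Arf-/- cells. The related factor Ebf1 differed by 0.18 (limma, adjusted p = 0.724) and 0.64. Of the 12 regulators that oppose the process, Foxo1 read higher in both backgrounds, by 0.32 (limma, adjusted p = 0.640) and 0.69. Gata3 differed by 0.25 (0.16 without fx/fx replicate 2) and -0.089 and Gata2 by -0.053 and -0.55, and the list had medians of -0.033 and -0.059. Among the 5 other genes with a Cebp or Ppar symbol, listed by symbol only, Cebpz differed by -0.20 and -0.22. Ppara differed by 0.15 (0.065 without fx/fx replicate 2) and 0.34 and Cebpg by 0.0052 and -0.31.

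In triglyceride synthesis (11 genes, medians -0.014 and 0.031) the desaturase gene Scd1 differed by -0.11 and -0.72, Dgat2, which adds the last fatty acid, by 0.13 and 0.63, Mogat1 by -0.27 and -0.18 and Agpat2 by 0.13 and 0.077. None of the 12 genes that handle or resemble lipoprotein lipase reached 1.5-fold in Ink4a/Arf+/+ cells (4.25% of all genes did). In this list Angptl4, an inhibitor of the lipase, differed by 0.13 (0.039 without fx/fx replicate 2) and 0.21, Vldlr by -0.062 and -0.31, and the related lipases Lipc by -0.14 (0.047 without fx/fx replicate 1) and -0.038 and Lipg by -0.093 and -0.24. Among 12 adipokines and insulin response genes, Fabp4, the fatty acid carrier of fat cells, read 8.05 and 7.94 against 7.999 and 7.96 in Ink4a/Arf-/- cells and 7.26 against 6.49 in Ink4a/Arf+/+ cells, differences of 0.014 and 0.77. The insulin-responsive glucose transporter Slc2a4 differed by 0.24 (limma, adjusted p = 0.679) and 0.46, and Nampt by -0.17 and -0.13. The other 13 carbonic anhydrases, which were not picked by these values as Car3 was, ranged in Ink4a/Arf+/+ cells from -0.55 for Car1 to 0.44 for Car11. Their median was 0.027. In Ink4a/Arf-/- cells Car9 differed by -0.29, or by -0.14 without fx/fx replicate 2 and -0.43 without fx/fx replicate 1, and Car10 by 0.21.

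**Figure D4:**
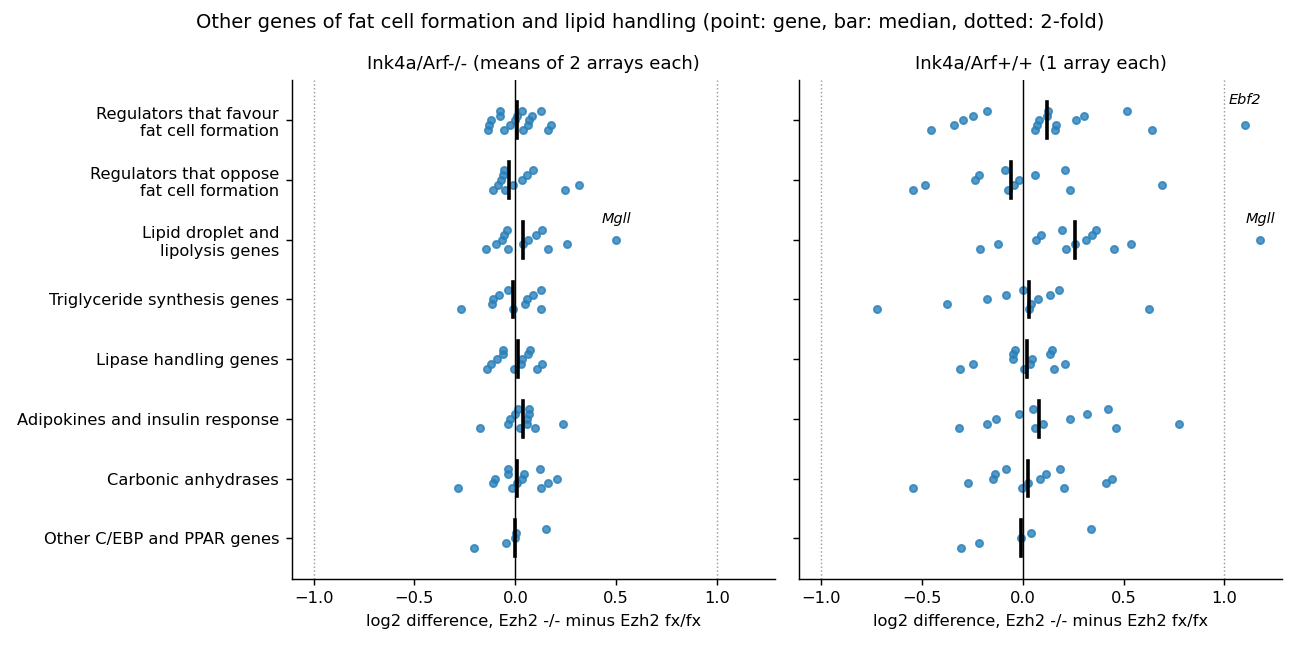
Log2 difference of Ezh2 -/- minus Ezh2 fx/fx (horizontal axis) for each of 95 genes in 8 lists, with Ink4a/Arf-/- cells on the left and Ink4a/Arf+/+ cells on the right, a point per gene, a bar at each list's median and dotted lines at 2-fold. Mgll lies farthest to the right in both panels, at 0.50 and 1.18, and Ebf2 at 1.10 is the other gene past 2-fold.

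Markers of fibroblasts and of the cell types that also use these genes were read on the same arrays. The 8 fibroblast markers, led by the filament gene Vim, had a summed level between 15.69 and 15.75 in log2 on all 6 arrays, and ranked between percentiles 59.3 and 99.96. On the single pair of Ink4a/Arf+/+ arrays 7 of the 8 were lower with Ezh2 -/- and 1 higher (50.1% of all probe sets were higher), with a median difference of -0.15. The differences ran from -1.41 for Pdgfra to 0.44 for Pdgfrb, with -0.012 for Vim. In Ink4a/Arf-/- cells 3 were lower and 5 higher (39.1% of all probe sets were higher). The 7 defining markers of white fat cells, Plin1, Cidec, Lep, Retn, Cfd, Fabp4 and Adipoq, ranked between 7.28 and 47.1. Their summed log2 level was 10.20 and 10.12 with Ezh2 -/- and 10.26 and 10.09 with fx/fx in Ink4a/Arf-/- cells, and 9.23 against 9.08 in Ink4a/Arf+/+ cells. In Ink4a/Arf+/+ cells 3 of the 7 were higher and 4 lower on the Ezh2 -/- array (50.1% of all probe sets were higher), with a median of -0.018. They ranged there from -0.40 for Adipoq to 0.77 for Fabp4. Car3 and Lpl were picked for their differences on these arrays, so they are not set against the markers. The 4 brown fat markers summed to 9.04 against 9.31 there, and the 7 skeletal muscle markers, where Car3 is also made, to 10.73 against 10.91. The 6 macrophage markers, relevant to Lpl and Cd36, summed to 8.61 with Ezh2 -/- and 8.63 with fx/fx, and the 5 endothelial markers to 8.57 against 8.38. In Ink4a/Arf-/- cells the sums lay between 10.52 and 10.79 for macrophage, 11.58 and 11.89 for muscle, 9.36 and 9.57 for endothelial and 9.51 and 9.57 for brown fat markers, with the genotypes overlapping for macrophage, endothelial and brown fat markers. The muscle sum was lower on both Ezh2 -/- arrays, at 11.58 and 11.68 against 11.89 and 11.70. Acta1 weighed most in it, at 11.03 and 11.13 against 11.39 and 11.18. Of the 7 muscle markers 2 were lower without overlap (23.6% of all probe sets) and 0 had an unadjusted limma p below 0.05. Fewer cells of a type and less RNA per cell cannot be told apart in bulk RNA, and the part of these cell types in the differences was not tested. Only 1 of these markers reached 2-fold: Pdgfra, a receptor of fibroblasts and fat cell precursors, read 8.28 with Ezh2 -/- and 9.69 with fx/fx in Ink4a/Arf+/+ cells, a difference of -1.41. In Ink4a/Arf-/- cells it read 10.08 and 9.95 against 10.30 and 10.07, with overlap and a difference of -0.17.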

How the data were processed

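RNA of 6 fibroblast samples in 4 groups was read on Affymetrix whole-transcript arrays, with biotin-labelled cDNA, per the labels' protocols. The authors deposited log2 levels of 23346 probe sets in 2 tables, with their mean, a log2 fold change and an unadjusted p-value. How the arrays were normalized and background-corrected, and by which model the p-values were made, could not be read from the labels; limma appears, with no version, per the submitters' processing notes. The deposited log2 fold change equals the difference of the group means to within 4.8e-08, and the deposited series matrix holds the same log2 levels. P-values deposited for Ink4a/Arf+/+ cells rest on single arrays and were not used.

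The 10 genes and all lists were chosen with earlier results of these data known. Limma 3.58.1 (R 4.3.3) was fitted to all 6 arrays and all probe sets with 1 mean per group, which leaves the Ink4a/Arf-/- replicates to set the spread. P-values were two-sided, adjusted with Benjamini-Hochberg and called below 0.05. For Ink4a/Arf+/+ cells differences of at least 2-fold were counted, with no test. A gene with several probe sets was read in the lists by the one with the highest mean level. Named from each list were genes called or at least 2-fold different and the 2 largest differences in each background, from the markers those at least 2-fold different and the highest, and the 3 genes most like Car3 and Lpl. Alternatives were a filter on the dimmest 30% of probe sets, a variance trend, quantile normalization, median centring, the replicate block, each array left out, the series matrix, the authors' p-values, gene means and a 1.5-fold limit.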

Additional observations from a re-analysis of the deposited data

Results flagged for a closer look

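Cebpa was lower on both Ezh2 -/- arrays than on both fx/fx arrays of Ink4a/Arf-/- cells (-0.19) and higher on the Ezh2 -/- array of Ink4a/Arf+/+ cells (0.19), so the differences lay 0.39 apart in log2. Gata3 went the opposite way, with 0.25 in Ink4a/Arf-/- and -0.089 in Ink4a/Arf+/+ cells, a gap of -0.34. Neither difference between backgrounds was tested, and the Ink4a/Arf+/+ side is 1 array per genotype. In Ink4a/Arf-/- cells 23.6% of all probe sets were lower without overlap, as Cebpa was, and 13.0% higher, as Gata3 was.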

How the results depend on the processing

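Under all 12 alternatives 0 member probe sets were called in Ink4a/Arf-/- cells, and the lowest adjusted p was 0.240, for Cebpa without fx/fx replicate 2 (limma). The probe sets of Lpl, Cd36 and Adipoq, (3 of 11) were left out with the dimmest 30%. Pparg, Cebpa, Lpl, Car3 and Lipe probe set 10551155 kept their direction wherever they were fitted. Small differences changed sign: Cd36 to 0.016 and Adipoq to 0.053 with quantile normalization, to 0.012 and 0.0033 with median centring, and Lipe probe set 10561031 to -0.024 as a gene mean. Leaving out 1 array each gave -0.040 to 0.17 for Cebpb, -0.043 to 0.11 for Cebpd, -0.18 to 0.17 for Cd36, -0.00038 to 0.030 for Pnpla2, -0.032 to 0.19 for Lipe probe set 10561031 and -0.12 to 0.097 for Adipoq. It gave -0.12 to 0.0090 for Gata2, -0.13 to 0.21 for Plin4, -0.33 to 0.047 for Lipc, -0.045 to 0.074 for Fabp4, -0.12 to 0.047 for Car1 and -0.079 to 0.089 for Cebpg, and Car1 was 5.4e-04 with quantile normalization. The cause was not tested. The variance trend called 1 of 95 pathway genes, Mgll, and 48 probe sets in all. Limma called 4 probe sets in all after the dimmest 30% were dropped, 13 when fx/fx replicate 2 was left out and 5 when the second Ezh2 -/- array was. In Ink4a/Arf+/+ cells 7 of 95 pathway genes passed 1.5-fold (4.25% of all genes), and 1 passed 2-fold higher as gene means (0.782% of all genes at 1 probe set each), since the second probe set of Ebf2 did not differ. No label says that the replicate numbers pair the samples. The replicate differences of the genotypes had a correlation of 0.026 across probe sets, which cannot show whether samples were paired. With the replicate block 0 of 11 member and 0 of 95 pathway probe sets were called, with Cebpa at -0.19 (limma, adjusted p = 0.722).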
